A study of Mus musculus with 6 samples.

Results

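The genes of cholesterol and fatty acid synthesis were followed in murine pre-B cells that BCR-ABL1 had transformed. BCR-ABL1 is the constitutively active kinase made by the Philadelphia chromosome in acute lymphoblastic leukaemia. The set holds 32 genes of the 19936 tested on the arrays, listed by name for their place in the pathway, with earlier results of these arrays known. They fall into 6 mevalonate enzymes, 9 enzymes from squalene to cholesterol, 6 genes of sterol sensing and transport, 9 of fatty acid synthesis and 2 of cholesterol efflux. Each was found on the array through a probe set that names only that gene, and the brightest probe set stood for the gene where there were several. The tested cells had received the retroviral vector pMIG-IKZF1, which adds IKZF1 and so supplies Ikaros, a zinc finger regulator of lymphoid genes. The control cells had received the empty vector pMIG. Both groups carried BCR-ABL1, had a wild-type genotype and came from C57Bl6 mice aged 4 weeks. Cells positive for green fluorescent protein (GFP), the vector's marker, were sorted 3 days after transduction, and each group holds 3 arrays, named IKZF1 1 to 3 and pMIG 1 to 3.

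Cholesterol is built from acetyl-CoA through mevalonate, isoprenoid units, squalene and lanosterol. Fatty acids start from the same acetyl-CoA, are assembled to palmitate by fatty acid synthase and are then lengthened by elongases and given double bonds by desaturases. Transcription of both branches is driven by the sterol regulatory element binding proteins (SREBPs), which Scap carries out of the endoplasmic reticulum when sterols are low and which Insig proteins hold back when sterols are high. Efflux genes answer to the liver X receptors, which sense oxidised sterols. Dividing leukaemic cells use both branches to make membrane.

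Levels are log2(intensity + 1) of the deposited probe set intensities, and differences are IKZF1 minus pMIG on that scale. Ikzf1 itself checked the labels: it was 2.34-fold higher in IKZF1 cells, at 13.10 ± 0.04 against 11.87 ± 0.10 in pMIG cells (SD, n = 3 each). The labels give neither the species nor the isoform of the insert. Of 12 pre-B cell markers analysed all lay above background, which was set at 6.18, the level under which 95% of 1190 olfactory and vomeronasal receptor genes lay. Of 9 myeloid markers 1 lay above it (Lyz2), of 2 erythroid markers 0, of 5 T cell markers 2 and of 8 stromal and adipocyte markers 4, with the adipocyte genes Adipoq and Fabp4 below and Plin1 above, at 6.48 in IKZF1 cells and 6.46 in pMIG cells. The summed T cell markers ran from 8.42 to 8.78 on the IKZF1 arrays and from 8.27 to 8.33 on the pMIG arrays (log2), and the summed stromal markers from 9.40 to 9.71 and from 9.27 to 9.41. No marker of these 5 lists passed the threshold, and the part of such cells in the results was not tested. Whether the 3 arrays of a group stem from independent cultures is not stated in the labels, and the p-values cover the spread of these samples alone, which may be technical. In such bulk RNA, fewer cells of a type and less RNA per cell cannot be told apart.

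In IKZF1 cells the 15 enzymes that make cholesterol lay close to their pMIG level, with a median difference of -0.016 and a range from -0.28 to 0.15, whereas the 9 fatty acid genes had a median of -0.191. Among these, Acly, Acaca and Fasn lay between -0.08 and 0.06, and 5 of the 6 elongases and desaturases lay below 0, with a median of -0.302. Those 6 were split off from the fatty acid group and were not among the groups fixed before the analysis. Scd2, a stearoyl-CoA desaturase, was the member that passed the threshold, and it fell by 22.1%. Over all 32 members 0 rose and 1 fell by limma (Benjamini-Hochberg adjusted p under 0.05 over all genes), against 1.12% of all genes higher and 1.13% lower, so the share of members past the threshold was near that of the array as a whole. The difference between the branches was not tested as such, and the median over all genes was 0.035. In all 20 of the 32 members had a difference below 0, as had 40.8% of all genes. At an unadjusted p under 0.05 there were 1 member higher and 6 lower, where 9.58% and 8.84% of all genes lay.

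**Figure D1:**
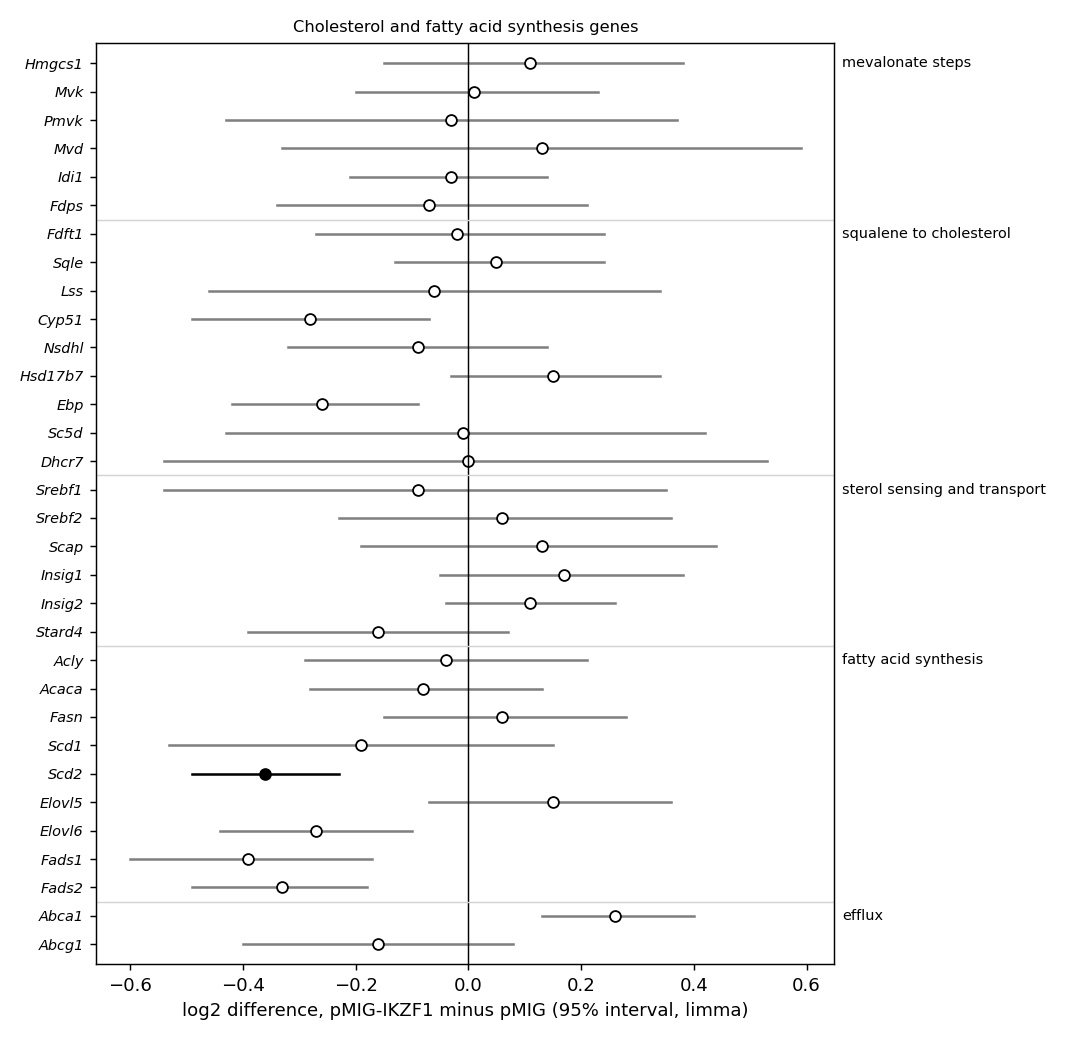
Log2 difference between pMIG-IKZF1 and pMIG cells for the 32 genes, in order of role, with 95% intervals from limma (3 arrays per group). Filled points have an adjusted p under 0.05. Scd2 is the filled point at -0.36, and Fads1, Fads2, Elovl6, Cyp51 and Ebp also have intervals wholly below 0, while Abca1 has one wholly above 0.

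The mevalonate enzymes showed no difference past the threshold. Hmgcs1, the HMG-CoA synthase that commits acetyl-CoA to the sterol branch, had levels of 11.71, 11.77 and 11.52 on the IKZF1 arrays, against 11.56, 11.72 and 11.38 on the pMIG arrays. The groups overlapped, and the difference was 0.11 ± 0.11 (SE, n = 3 per group; limma adjusted p = 0.62). The mevalonate kinase Mvk (0.01), the phosphomevalonate kinase Pmvk (-0.03), the diphosphomevalonate decarboxylase Mvd (0.13), the isopentenyl diphosphate isomerase Idi1 (-0.03) and the farnesyl diphosphate synthase Fdps (-0.07) had adjusted p between 0.74 and 0.94. A second probe set of Idi1 gave -0.01. The 95% intervals of these 6 genes reached no further than -0.43 and 0.59, the last for Mvd, so a change of Mvd by up to 1.51-fold upward lay within its error.

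From squalene to cholesterol, 7 of 9 enzymes had intervals that held 0. Farnesyl diphosphate is joined to squalene by Fdft1 (-0.02; a second probe set gave -0.15), squalene is oxidised by Sqle (0.05) and cyclised to lanosterol by Lss (-0.06), with adjusted p between 0.73 and 0.95 for these 3. Nsdhl (-0.09) and Hsd17b7 (0.15), which take part in removing further methyl groups from the sterol ring, had adjusted p of 0.63 and 0.34. The last steps, by the desaturase Sc5d and the reductase Dhcr7, had differences of -0.01 and -0.0033, and Dhcr7 had the widest interval of the branch. For Dhcr7 the levels were 10.38, 10.60 and 10.20 on the IKZF1 arrays and 10.53, 10.75 and 9.91 on the pMIG arrays, with an interval from -0.54 to 0.53.

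Cyp51 and Ebp stood lower in IKZF1 cells without overlap between the groups. Cyp51, the lanosterol demethylase, read 10.72, 11.00 and 10.86 on the IKZF1 arrays, against 11.17, 11.19 and 11.06 on the pMIG arrays. Its difference was -0.28 ± 0.09 (SE, n = 3 per group; limma adjusted p = 0.17). Ebp, a sterol isomerase of the late pathway, read 9.98, 9.85 and 9.95 on the IKZF1 arrays and 10.23, 10.23 and 10.09 on the pMIG arrays, a difference of -0.26 ± 0.07 (adjusted p = 0.13). Neither passed the threshold. In the whole set 6 of 32 members lay lower and 2 higher without overlap, where 11.3% of all genes lay lower and 15.2% higher in this way. An exact 2-sided permutation test gives such a gene p = 0.1, which is the lower bound with 3 arrays a group.

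For the genes that sense and carry sterols, each of the 6 intervals held 0. The SREBP genes Srebf1 and Srebf2 had differences of -0.09 and 0.06 (limma adjusted p = 0.80 for both), and Scap, their escort, 0.13 (adjusted p = 0.63). Insig1, itself a target of the SREBPs, read 11.57, 11.55 and 11.35 on the IKZF1 arrays, against 11.26, 11.46 and 11.26 on the pMIG arrays, a difference of 0.17 ± 0.09 (SE; adjusted p = 0.38). Insig2 was higher without overlap, at 9.96, 9.84 and 9.79 on the IKZF1 arrays and 9.75 on each of the 3 pMIG arrays, yet the difference of 0.11 did not pass (adjusted p = 0.40). Stard4, a carrier of cholesterol within the cell, had -0.16 (adjusted p = 0.41).

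As a branch, the cholesterol enzymes varied more between arrays of 1 group than between the groups. Relative to each gene's mean over the 6 arrays, the median of the 15 enzymes was 0.00, 0.09 and -0.13 on IKZF1 1 to 3, and 0.10, 0.17 and -0.15 on pMIG 1 to 3. The same medians over all genes lay between -0.02 and 0.05. Array 3 was thus low for this branch in both groups: it held the lowest value of its group for 12 of the 15 enzymes in IKZF1 cells and for 13 in pMIG cells, where 33.8% and 37.3% of all genes had theirs. Idi1 and Sqle were instead highest on pMIG 3, though Idi1 was lowest on IKZF1 3 as most of the others were. The low values on IKZF1 3 were not particular to this branch. There the 9 fatty acid genes also had a median of -0.13, and 8 had their lowest value of the group. On pMIG 3 their median was 0.06, and 5 had their lowest value. Of the 6 genes of sterol sensing and transport, 5 were lowest on IKZF1 3 and 4 on pMIG 3. The median difference of the cholesterol branch was -0.151 without pMIG 3, but 0.081 without pMIG 2, 0.052 without IKZF1 3, 0.017 without pMIG 1 and 0.017 after quantile normalization, so its sign depended on these settings. Without pMIG 3 both early and late enzymes were more negative, such as Pmvk (-0.21), Lss (-0.22), Dhcr7 (-0.25) and Sc5d (-0.21). Their limma adjusted p were 0.37, 0.41, 0.38 and 0.34. Idi1 and Sqle went the other way, to 0.02 and 0.12. The labels give no batch, and what the array numbers mark is not stated.

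**Figure D2:**
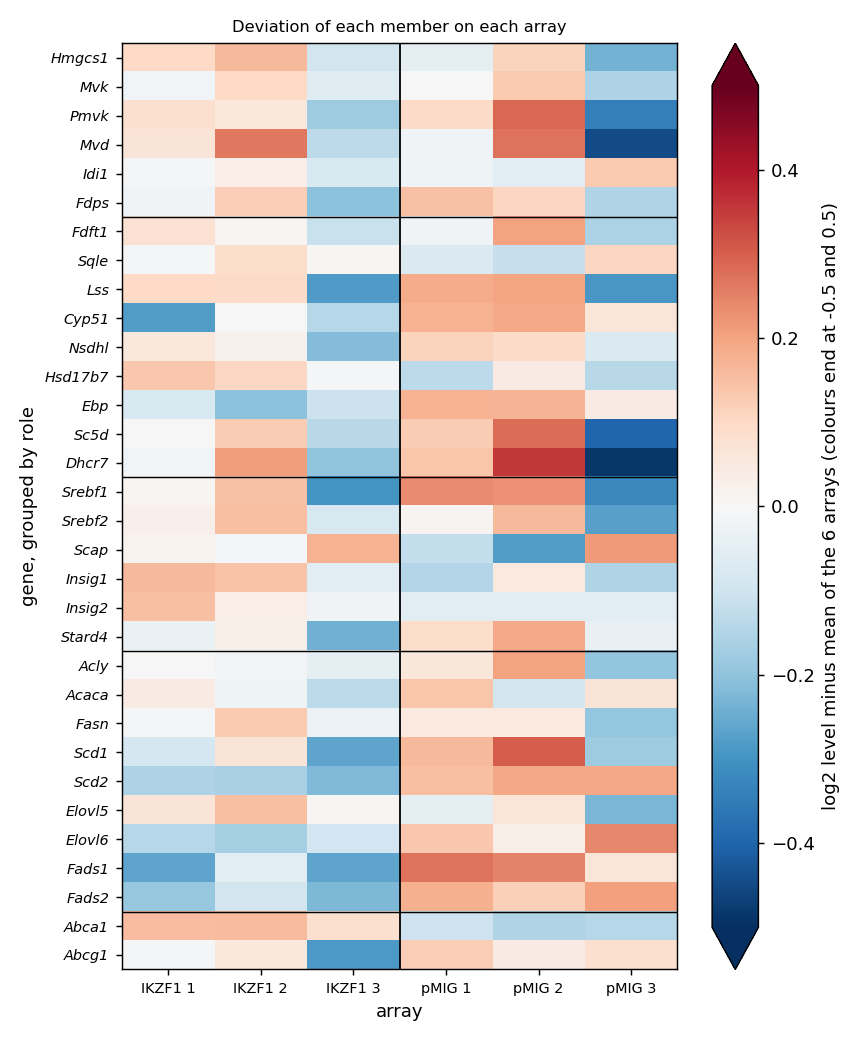
Log2 level of each of the 32 genes on each array minus the gene's mean over the 6 arrays, with genes in rows grouped by role and arrays in columns (pMIG-IKZF1 left, pMIG right). Most sterol enzymes are blue on array 3 of both groups, and Scd2, Fads1, Fads2 and Elovl6 are blue on all 3 IKZF1 arrays and red on all 3 pMIG arrays.

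In the fatty acid branch the first steps lay near their pMIG level in IKZF1 cells and most later steps below it. Acly, which makes cytosolic acetyl-CoA from citrate, had a difference of -0.04, Acaca, the acetyl-CoA carboxylase, -0.08 and Fasn, the fatty acid synthase, 0.06, with adjusted p between 0.65 and 0.85. The second probe set of Acaca gave -0.11. Fasn read 11.94, 12.08 and 11.92 on the IKZF1 arrays and 11.99, 11.99 and 11.75 on the pMIG arrays, so the groups overlapped, and its interval from -0.15 to 0.28 allows a change of at most 1.21-fold upward.

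Scd2 and Scd1 insert the first double bond into saturated acyl-CoA. Scd2 read 12.86, 12.85 and 12.79 on the IKZF1 arrays, against 13.16, 13.21 and 13.21 on the pMIG arrays. All IKZF1 values lay below all pMIG values, with SDs of 0.04 and 0.02. Scd2 fell by 0.36 ± 0.05 on the log2 scale (SE, n = 3 per group; limma adjusted p = 0.032, and 0.032 with the replicate number as a block). After quantile normalization the difference was -0.30, with a limma adjusted p that rounds to 0.05, at the threshold. The size hardly depended on single arrays, but the call did. Without pMIG 1 or pMIG 2 the differences were -0.37 and -0.35 (adjusted p = 0.16 and 0.09), without IKZF1 1, IKZF1 2 or IKZF1 3 they were -0.37, -0.37 and -0.34 (adjusted p = 0.12, 0.086 and 0.12), and without pMIG 3 the call held (-0.35, adjusted p = 0.041). Scd1 read 12.85, 13.00 and 12.67 on the IKZF1 arrays and 13.10, 13.24 and 12.76 on the pMIG arrays. These overlapped, with a difference of -0.19 ± 0.14 (adjusted p = 0.51). Scd1 and Scd2 are related genes, and how far their probes read each other's transcript was not tested.

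The desaturases of polyunsaturated fatty acids were lower to a like extent and did not pass the threshold. Fads1, the delta-5 desaturase, read 11.38, 11.59 and 11.38 on the IKZF1 arrays and 11.91, 11.89 and 11.70 on the pMIG arrays. Its difference of -0.39 ± 0.09 (SE, n = 3 per group) was the most negative of the 32 members, with a limma adjusted p of 0.093. Fads1 passed with the replicate block (adjusted p = 0.040), where 3.36% of all genes were called higher and 3.85% lower, and without pMIG 3 (-0.45, adjusted p = 0.044). It did not pass with any other array left out (limma adjusted p from 0.11 to 0.34) or after quantile normalization (0.12). Fads2, the delta-6 desaturase, read 11.42, 11.52 and 11.39 on the IKZF1 arrays and 11.79, 11.73 and 11.82 on the pMIG arrays. Its groups lay well apart relative to their SDs of 0.07 and 0.05, and its difference of -0.33 ± 0.06 had an adjusted p of 0.056 (0.051 with the block). Fads2 passed with a pseudocount of 16 (adjusted p = 0.041), with arrays centred on their medians (0.037) and with an intensity trend in the prior (0.042). It did not pass with any single array left out (limma adjusted p from 0.074 to 0.25).

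Neither elongase passed the threshold. Elovl6, which lengthens palmitate to stearate, read 11.81, 11.79 and 11.86 on the IKZF1 arrays, against 12.09, 11.98 and 12.20 on the pMIG arrays, a difference of -0.27 ± 0.07 (SE; limma adjusted p = 0.13). Elovl5, which lengthens polyunsaturated chains, read 12.42, 12.51 and 12.36 on the IKZF1 arrays and 12.31, 12.42 and 12.13 on the pMIG arrays, a difference of 0.15 ± 0.09 (adjusted p = 0.42). Between arrays of the same number, 5 of the 6 elongases and desaturases were lower in IKZF1 cells in 3 of 3 pairs and Elovl5 was higher in 3 of 3. Of all genes 20.3% were lower and 30.2% higher in 3 of 3 pairs. Of the 15 cholesterol enzymes 3 were lower and 2 higher in this sense, and 10 were mixed. The median of the 9 fatty acid genes was -0.191, and -0.121 after quantile normalization.

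The efflux genes were not concordant. Abca1, which exports cholesterol to apolipoproteins, read 6.45, 6.46 and 6.38 on the IKZF1 arrays, against 6.20, 6.15 and 6.16 on the pMIG arrays. It was higher without overlap by 0.26 ± 0.06 (SE, n = 3 per group; limma adjusted p = 0.073) and did not pass. Its level is close to the background limit of 6.18, and among the receptor genes that mark background 3.28% had a difference at least as high, with a median of 0.05. Abcg1, which exports sterols to lipoprotein particles, read 10.56, 10.62 and 10.28 on the IKZF1 arrays and 10.69, 10.61 and 10.65 on the pMIG arrays. These overlapped, and the difference was -0.16 ± 0.10 (adjusted p = 0.43).

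**Figure D3:**
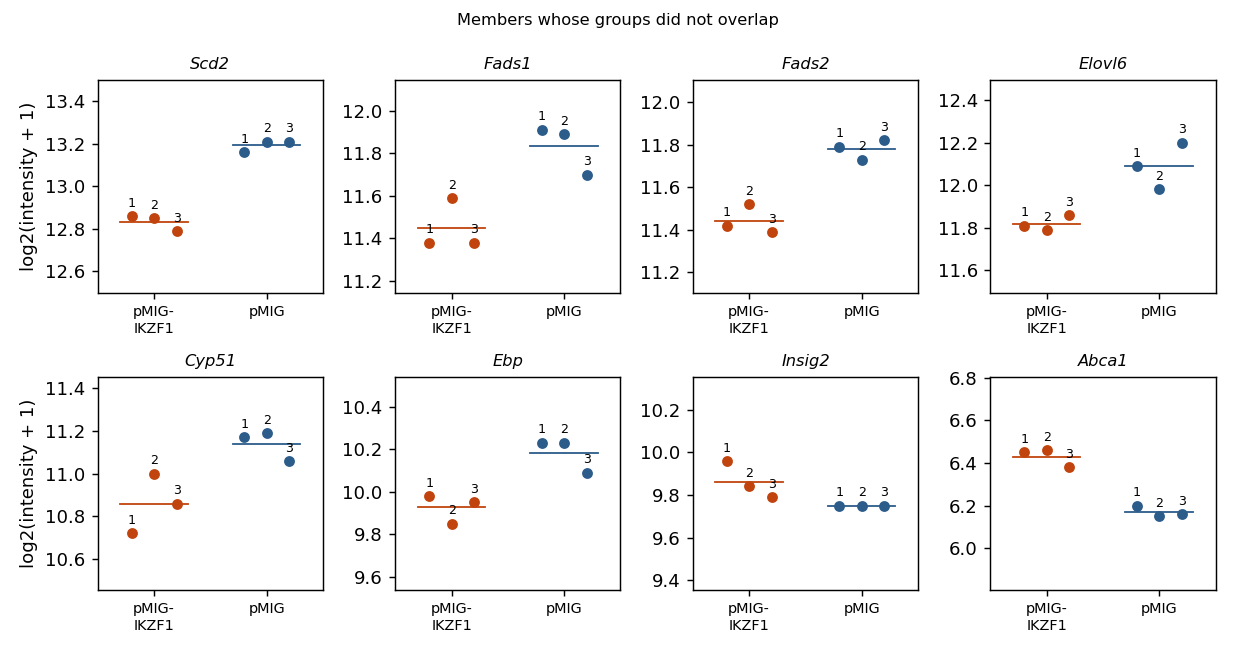
Log2(intensity + 1) on each array for the 8 members whose groups did not overlap, with pMIG-IKZF1 left and pMIG right, points numbered by array and lines at the group means. Each panel spans 1 log2 unit. The first 6 genes are lower and Insig2 and Abca1 higher in IKZF1 cells, and the adjusted p was under 0.05 for Scd2 alone.

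The promoters of both branches are shown because genes of both are known SREBP targets. RefSeq windows of the GRCm38.p6 build, from 250 bases before to 50 after a gene's start, were given for 24 of the 32 members. The window of Hmgcs1 was the one that held the sterol regulatory element TCACNCCAC on either strand, a motif found in 1.24% of all 32851 windows. It begins 137 bases before the start. The windows of Ebp, Cyp51, Elovl6 and Fads2 were added after their values were seen, as those of the enzymes of both branches that were lower without overlap and had a window. Insig2 and Abca1, which were higher without overlap, are not enzymes of the branches and are not shown. In the sequences, written 5′ to 3′ on the gene's strand, capitals mark TCACNCCAC and CCAAT, the box bound by the factor NF-Y, on either strand.
Hmgcs1, chr13:119690101-119690400, plus strand: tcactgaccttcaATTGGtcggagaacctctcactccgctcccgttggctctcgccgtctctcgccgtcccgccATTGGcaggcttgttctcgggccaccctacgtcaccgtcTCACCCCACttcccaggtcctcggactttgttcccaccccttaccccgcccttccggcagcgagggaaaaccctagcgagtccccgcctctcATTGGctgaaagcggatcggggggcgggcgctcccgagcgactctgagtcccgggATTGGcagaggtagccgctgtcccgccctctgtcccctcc
Ebp, chrX:8193463-8193762, minus strand: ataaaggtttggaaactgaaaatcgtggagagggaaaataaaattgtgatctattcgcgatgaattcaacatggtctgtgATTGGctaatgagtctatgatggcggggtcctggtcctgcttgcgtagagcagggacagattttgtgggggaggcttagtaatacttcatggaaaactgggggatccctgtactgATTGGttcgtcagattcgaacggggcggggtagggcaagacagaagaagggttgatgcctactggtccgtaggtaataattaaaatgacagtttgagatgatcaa
Cyp51, chr5:4104648-4104947, minus strand: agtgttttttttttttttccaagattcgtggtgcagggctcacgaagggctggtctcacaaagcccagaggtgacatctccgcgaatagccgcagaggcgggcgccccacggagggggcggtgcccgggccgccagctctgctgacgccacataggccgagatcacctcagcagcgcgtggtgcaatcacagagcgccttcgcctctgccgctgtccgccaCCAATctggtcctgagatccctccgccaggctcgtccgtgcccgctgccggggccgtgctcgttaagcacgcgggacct
Elovl6, chr3:129532136-129532435, plus strand: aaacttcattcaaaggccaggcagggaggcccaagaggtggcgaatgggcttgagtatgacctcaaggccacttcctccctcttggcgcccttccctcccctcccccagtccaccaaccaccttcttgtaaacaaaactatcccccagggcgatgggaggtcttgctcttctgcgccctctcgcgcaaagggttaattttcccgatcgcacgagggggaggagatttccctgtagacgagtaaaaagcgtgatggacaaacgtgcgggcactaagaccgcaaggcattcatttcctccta
Fads2, chr19:10101454-10101753, minus strand: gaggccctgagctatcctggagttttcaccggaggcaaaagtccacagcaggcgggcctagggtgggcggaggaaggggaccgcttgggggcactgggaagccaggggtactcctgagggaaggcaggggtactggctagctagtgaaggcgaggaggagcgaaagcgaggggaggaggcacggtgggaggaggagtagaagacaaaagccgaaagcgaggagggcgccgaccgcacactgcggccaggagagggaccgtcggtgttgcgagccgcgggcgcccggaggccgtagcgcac

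Over all windows on either strand, 12 of 12 cholesterol enzymes with a window held CCAAT, in 12 of their 15 windows, and 3 of 6 fatty acid genes did, Acly, Elovl5 and Fasn. CCAAT was found for 41.1% of all genes of the table and in 37.4% of all windows. GGGAA, the core of Ikaros binding sites, stood in 10 of the 12 cholesterol enzymes and 4 of the 6 fatty acid genes, beside 65.5% of all genes and 62.7% of all windows. The E box CACGTG stood in 3 and in 1, beside 8.09% of all genes and 7.15% of all windows. These 4 motifs do not contain one another, and a match describes the letters only.

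Outside the set, 4 genes of the wider pathway passed: Mylip, Vldlr, Hacd2 and Mid1ip1. A list of 77 further genes of sterol and fatty acid metabolism had 65 tested members, of which 1 rose and 3 fell by limma, and the other 61 did not pass, beside 1.12% and 1.13% of all genes. Their median difference was -0.027. Mylip, a ubiquitin ligase that removes lipoprotein receptors and is a target of the liver X receptors, read 11.25, 11.40 and 11.07 on the IKZF1 arrays, against 10.31, 10.35 and 10.54 on the pMIG arrays. It rose by 0.84 ± 0.11 (SE, n = 3 per group; adjusted p = 0.019), 1.79-fold. Vldlr, the very low density lipoprotein receptor gene, read 5.64, 5.86 and 5.69 on the IKZF1 arrays and 7.21, 6.90 and 6.94 on the pMIG arrays. It fell by 1.28 ± 0.10 (adjusted p = 0.0066), and on the IKZF1 arrays it lay within the background range, so the size of the fall rests on a background signal.

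The 2 other genes that fell were Hacd2 and Mid1ip1. Hacd2, a dehydratase of the fatty acid elongation cycle, read 11.12, 11.03 and 11.38 on the IKZF1 arrays and 11.78, 11.80 and 11.75 on the pMIG arrays. It fell by 0.60 ± 0.10 (SE; limma adjusted p = 0.037), and its dimmer probe set had -0.25. Mid1ip1, whose product promotes assembly of acetyl-CoA carboxylase into active polymers, read 10.00, 9.99 and 9.99 on the IKZF1 arrays and 10.48, 10.37 and 10.42 on the pMIG arrays, a fall by 0.43 ± 0.06 (adjusted p = 0.023). A second, dimmer probe set of Mid1ip1 had 0.06, and with the mean of both probe sets the difference was -0.19 (adjusted p = 0.24).

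The next 3 by p did not pass. Hsd17b12, the ketoacyl reductase of the same elongation cycle, had -0.43 (limma adjusted p = 0.093), the fatty acid translocase gene Cd36 -0.53 (adjusted p = 0.097) at a level within background, and Ggps1, which makes geranylgeranyl diphosphate, -0.24 (adjusted p = 0.13). With the replicate block Hsd17b12 had an adjusted p of 0.022, Cd36 one of 0.029 and Rxra, a partner of the liver X receptors that is named here after its value was seen, one of 0.038 (-0.39, adjusted p = 0.25 without the block). This brought the count to 1 higher and 6 lower of the 65 further genes, beside 3.36% of all genes higher and 3.85% lower with the block. Calls were also lost with 1 array left out, and this depended on the array. Without pMIG 3 Mylip, Vldlr, Hacd2 and Mid1ip1 each kept their call (limma adjusted p = 0.0096, 0.0042, 0.034 and 0.026). Mylip lost its call without pMIG 1, pMIG 2, IKZF1 1 or IKZF1 2 (adjusted p = 0.13, 0.059, 0.11 and 0.07), and so did Hacd2 (adjusted p = 0.18, 0.097, 0.15 and 0.10). Mid1ip1 lost its call without each array but pMIG 3 (adjusted p from 0.054 to 0.15), and Vldlr without IKZF1 1 (adjusted p = 0.053).

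**Figure D4:**
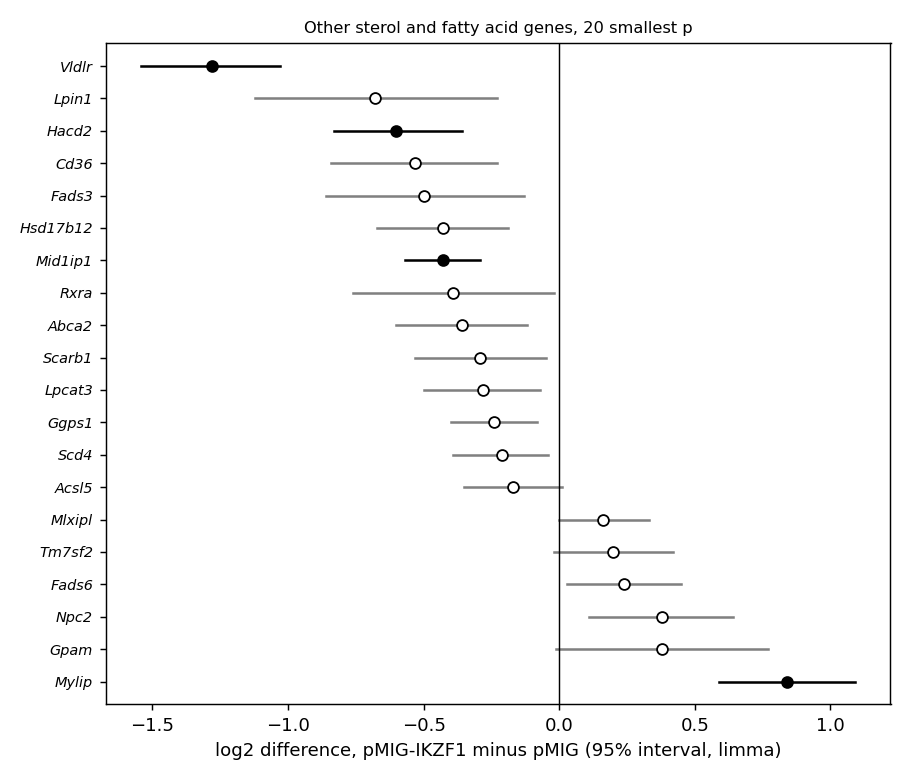
Log2 difference between pMIG-IKZF1 and pMIG cells with 95% intervals for the 20 further genes of sterol and fatty acid metabolism with the smallest p, ordered by size (limma, 3 arrays per group). Filled points passed the threshold: Vldlr, Hacd2 and Mid1ip1 are lower and Mylip is higher in IKZF1 cells.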

How the data were processed

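Total RNA of 6 samples was hybridised to Affymetrix arrays, 3 per group, grouped by the sample titles. The values were made with RMA, per the submitters' processing notes, with no version in the sources used here. The authors deposited probe set intensity values on a linear scale, from 11.1 to 23523, with array medians between 100.2 and 107; the scale was read from the values. The platform annotation names 1 gene for 21789 of the 35421 probe sets and several for 1621; the other 12011 have no name here. From the deposited intensities log2(intensity + 1) was computed, and the probe set with the highest mean over the arrays stood for each of 19936 genes, with no filter on level. Differences were fitted in R 4.3.3 by limma 3.58.1 (lmFit, then eBayes; 2-sided; group as the sole term), with Benjamini-Hochberg adjustment over all genes. The fit was run on simulated data with noise drawn independently for each array. How well it recovered small differences is not given here. Precision is limited by the number of arrays. The members and lists were chosen with earlier results of these data known. All members were named, and of the 65 further pathway genes those past the threshold and the next 3 by p; 12 listed genes were not analysed here. The array numbers come from the titles. Deviations from the group mean correlated over genes, between arrays of the same number, with r = 0.24, 0.60 and 0.66, all over 0.1, and those of other pairs with r from -0.68 to 0.11, so the block is given where it changes a call. With it 1438 genes passed, against 448 without. The alternatives were the block, a pseudocount of 16, a filter on level, the mean of probe sets, quantile normalization, centring, a trended or robust prior, array weights and leaving out each array.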

Additional observations from a re-analysis of the deposited data

How the results depend on the processing

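Of 39 named genes, 26 kept the sign of their difference under each of the 15 alternatives that gave them a value (14 for Cd36, which the filter on level left out), and the 13 with a sign change passed the threshold under none of them. Leaving out 1 array at a time moved the number of genes called from 448 to between 24 and 947 (higher, 21 to 360; lower, 2 to 587), of members called lower to between 0 and 2, and of the further pathway genes to between 0 and 2 higher and 0 and 8 lower. The count over all genes was 28 without pMIG 1, 163 without pMIG 2, 947 without pMIG 3, 24 without IKZF1 1, 83 without IKZF1 2 and 85 without IKZF1 3. With the replicate block 1438 genes passed (670 higher, 768 lower), with 2 members lower and 6 further genes lower, and with array weights 1481 (689 higher, 792 lower), with 1 member higher and 6 lower and 3 further genes higher and 8 lower; the fit of the array weights stopped before its tolerance was reached. The 6 were Cyp51, Ebp, Elovl6, Fads1, Fads2 and Scd2, and the riser was Abca1. A pseudocount of 16, centring and a trended prior each gave 2 members lower. Under these settings 282, 232 and 197 of all genes were called lower, against 225 in the main fit. The median difference of the fatty acid genes was -0.248 with array weights, -0.121 after quantile normalization and -0.253 to -0.107 with 1 array left out. The 13 genes with a sign change had main differences between -0.09 and 0.13. Reversed values reached 0.17, for Dhcr7 without pMIG 2, and the cause of the changes was not tested. With array weights Mvk had -0.03, Mvd -0.0014, Srebf2 -0.02 and Fasn -0.02; with centring Mvk had -0.03; after quantile normalization Pmvk had 0.01, Fdft1 0.02, Sc5d 0.02 and Dhcr7 0.03. With 1 array left out, the differences ran from -0.06 to 0.08 for Mvk, -0.21 to 0.11 for Pmvk, -0.06 to 0.30 for Mvd, -0.07 to 0.02 for Idi1, -0.16 to 0.02 for Fdps, -0.10 to 0.08 for Fdft1, -0.22 to 0.07 for Lss, -0.21 to 0.13 for Sc5d, -0.25 to 0.17 for Dhcr7, -0.28 to 0.03 for Srebf1, -0.06 to 0.16 for Srebf2, -0.15 to 0.05 for Acly and -0.02 to 0.10 for Fasn. Signal over background limits Abca1, Vldlr and Cd36.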
